A study of Mus musculus with 44 samples.

Results

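The Obox genes Obox1, Obox2, Obox3, Obox5 and Obox6 were followed in 44 single 2-cell mouse embryos. The members were taken by gene name from a table of 35269 genes. All 5 were found, and all 5 passed the filter on low values. The same table holds 3 more rows with an Obox name, Obox7, Obox8 and the noncoding RNA Obox4-ps35, which are used only for comparison.

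Obox genes encode oocyte-specific homeobox proteins, a rodent family of transcription factors that lies in a cluster on mouse chromosome 7. Transcripts of Obox1, Obox2, Obox5 and Obox7 are loaded into the egg, whereas Obox3 is transcribed from the embryonic genome at genome activation, and family members can stand in for each other. Mouse embryos that lack the maternal and the embryonic members together fail to activate their genome fully and arrest early. Obox6 is best known as a factor that raises the yield of induced pluripotent stem cells.

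The study asked whether Dppa2 and Dppa4, nuclear proteins that switch on 2-cell genes in embryonic stem cells, are needed for genome activation. Dppa2/4m- females carried conditional alleles on a C57Bl/6 background, which Zp3-Cre (a Cre driven by an oocyte promoter) deletes in growing oocytes. WT embryos were Dppa2/4+/+ offspring of control females and Dppa2/4+/+ males (n = 14, from matings of 10 and 4 embryos). HET1 embryos were Dppa2/4+/- offspring of Dppa2/4m- females and Dppa2/4+/+ males (n = 15, 7 and 8). HET2 (Dppa2/4+/-, n = 5, 4 and 1) and HOM (Dppa2/4-/-, n = 10, 3 and 7) embryos came from 2 shared matings of Dppa2/4m- females with Dppa2/4+/- males, and were told apart by the authors from their Dppa2 and Dppa4 transcripts. The HET1, HET2 and HOM embryos therefore all lacked the maternal gene products, and HOM embryos lacked the embryonic ones as well. Each mating gave 1 litter, so that each litter held offspring of 1 cross and WT was compared over 2 litters a cross, and the p-values measure the spread between embryos and not between litters unless stated.

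Values are log2 RPM (mapped reads scaled to equal library totals), with values under 1.86, the highest value that an embryo without a read takes, raised to 1.86 (the floor). Total reads ranged from 247667 to 3163026 per embryo. Dppa2 held at most 7 reads in HOM embryos and at least 184 in WT embryos. Markers of oocyte and embryo were detected in every group, while of 6 sperm markers 4 (Tnp1, Tnp2, Odf1 and Akap4) had no read in any embryo and the others had reads in at least 1 HET1 and 1 WT embryo, with a summed median of 0 RPM in each group. Of 10 markers of cumulus or granulosa cells, Fshr and Nr5a1 had no read in any embryo. Over all embryos together, 9 of the 10 had a median of 0 reads. However, the summed level of the 10 had medians of 15.1 to 40.2 RPM by group and was above 0 in every embryo. For 6 markers of later embryos, 4 with a median of 0 reads over all embryos together, the summed medians were 56.8 to 102 RPM by group. Whole embryos were sequenced, so fewer cells carrying a transcript and less transcript per cell cannot be told apart.

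The 5 genes share a homeobox, and a stretch of 75 bases from it, as long as 1 sequencing read, is shown because it tells how far reads of these genes can be separated. The stretches come from the GENCODE transcripts of GRCm38, lie in annotated coding sequence, and span an exon junction. Capitals mark the bases that differ from Obox1.
Obox1: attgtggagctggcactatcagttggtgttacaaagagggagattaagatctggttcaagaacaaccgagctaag
Obox2: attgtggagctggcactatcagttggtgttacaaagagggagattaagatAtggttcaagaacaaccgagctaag
Obox3: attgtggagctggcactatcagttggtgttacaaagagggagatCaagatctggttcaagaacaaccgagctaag
Obox5: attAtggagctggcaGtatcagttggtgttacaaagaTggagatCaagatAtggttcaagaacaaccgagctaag
Obox6: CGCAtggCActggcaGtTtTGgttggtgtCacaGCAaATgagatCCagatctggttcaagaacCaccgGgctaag

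Obox2 and Obox3 each differed from Obox1 by 1 base over this stretch, Obox5 by 5 and Obox6 by 20. The codon for homeodomain residue 50, which sets the DNA sequence that a homeodomain prefers, was aag (lysine) in all 5 genes. Over the 180 bases of the homeobox, Obox1 was 96.1% identical to Obox3, 95.6% to Obox5 and 71.1% to Obox6. Obox2 was left out of this longer alignment because its reference transcript gave a stop codon in the frame of the other genes.

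Sequence sharing set the reliability of each row. Of all 75-base words in the annotated transcripts, 47.2% of those of Obox1 and 52.6% of those of Obox2 also occurred in another gene, and all 853 shared words of either were in the other. The share was 12.3% for Obox3, all of them with Obox3 pseudogenes, 6.04% for Obox5 and 1.34% for Obox6. Reads were kept at a mapping quality of at least 20, which can remove reads that fit 2 genes, so the levels of Obox1 and Obox2 are the least certain. The annotated Obox1 gene (chr7:15388948-15556866, forward strand) also overlaps Obox2 (chr7:15388721-15398545, forward) and Obox3 (chr7:15479825-15639902, reverse), and the reads were counted without regard to strand. Obox5 (chr7:15750131-15759800, forward) and Obox6 (chr7:15833241-15839678, reverse) overlap no other Obox row.

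The start regions of the members were compared as well. RefSeq promoter windows of GRCm38.p6, 250 bases before to 50 after the start, were found for Obox1, Obox2, Obox3, Obox5 and Obox7. Obox6 and Obox8 had no window there, so they were not searched. The longest stretch common to the 5 windows was taken, so its presence in all 5 follows from the choice. It had 25 bases, and no other of 32851 promoter windows held it. Whether it bears on the levels was not tested.
Shared stretch: gtgagaattaaggatttgaatattg

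Positions are from the RefSeq starts, which differ from the ends of the gene spans given above, so that the stretch lay inside those spans. It lay at chr7:15547159-15547183 for Obox1 (position -98), at chr7:15639862-15639886 for Obox3 (-109) and at chr7:15750260-15750284 for Obox5 (-110). In the Obox2 window it lay at chr7:15388850-15388874, across the RefSeq start (from -1). The TATA-like word TATATAA, searched on both strands, was in the windows of Obox1, Obox3, Obox5 and Obox7 and in 3.24% of all windows. GGATTA, the core preferred by homeodomains with lysine at residue 50, was in the Obox3 window alone among these 5 and in 7.06% of all windows.

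Levels of the members differed widely between genes and between litters. Per kilobase of exon, Obox6 was the highest over all 44 embryos with a median of 262 RPM per kilobase (RPKM), followed by Obox5 with 76.8. The order was the other way round in HET1 embryos (medians of 361 for Obox5 and 200 for Obox6) and in HET2 embryos (211 and 131). Obox2 (10.9), Obox3 (10.8) and Obox1 (6.75) were low, and their ranges over embryos overlapped. When the length was reduced to the share of words that occur in 1 gene only, the medians were 265 RPKM for Obox6, 81.7 for Obox5, 22.9 for Obox2, 12.8 for Obox1 and 12.3 for Obox3, so the order of the 3 low genes is not settled. The median read number per embryo was 332 for Obox6 and 226.5 for Obox5, but 35 for Obox3, 17.5 for Obox2 and 15 for Obox1. Obox1 was above the floor in 36 of 44 embryos, Obox2 in 37 and Obox3 in 43, and Obox5 and Obox6 in all 44.

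**Figure D1:**
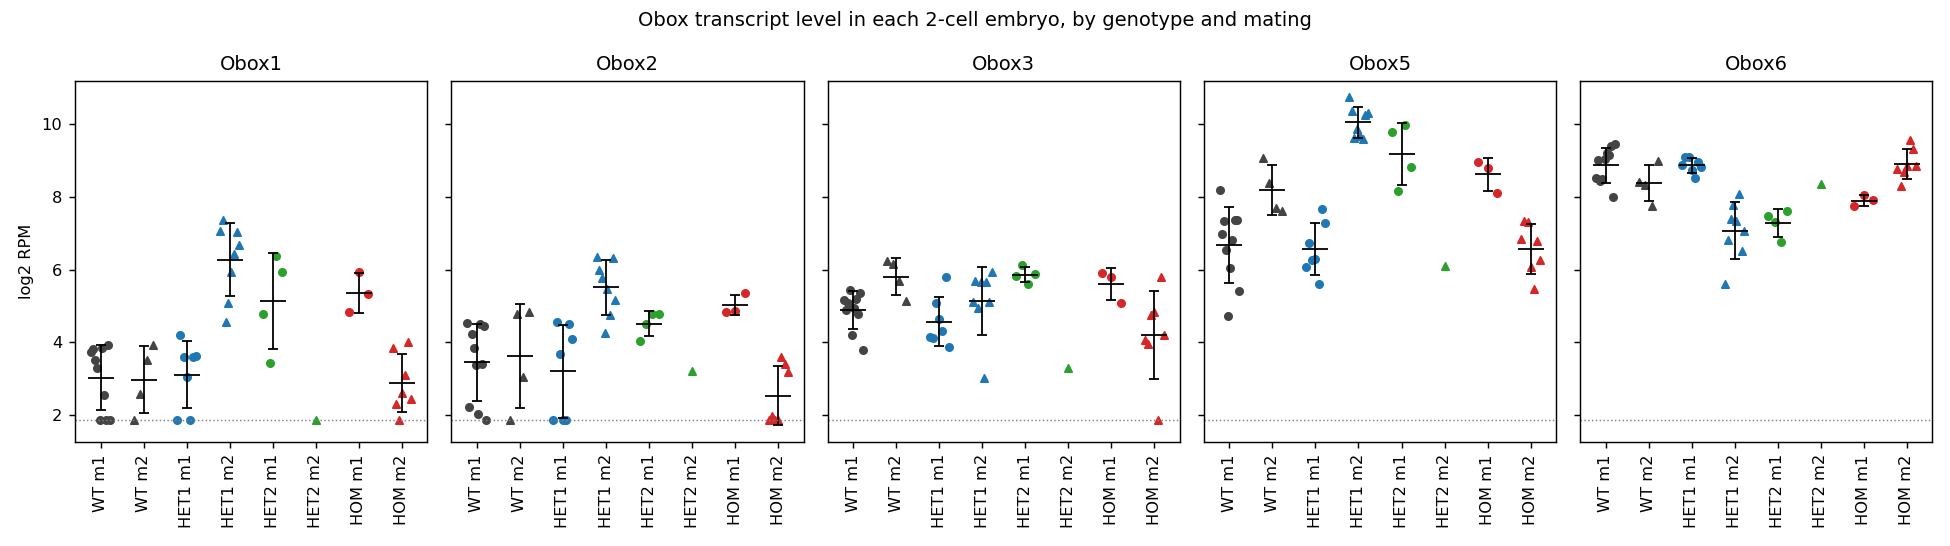
Level (log2 RPM) of the 5 genes in each of the 44 embryos by genotype and mating (m1, circles; m2, triangles), with the mean and SD in black where there is more than 1 embryo and the floor of 1.86 as a dotted line. The 8 HET1 embryos of mating 2 sit at 9.59 to 10.74 for Obox5 and at 5.59 to 8.07 for Obox6, apart from the 7 of mating 1 at 5.61 to 7.67 and 8.52 to 9.09.

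Among the maternally supplied members, Obox5 had the highest median level per kilobase. In WT embryos of mating 1 it ranged from 4.71 to 8.19 log2 RPM (median 6.91), and the 4 embryos of mating 2 stood at 9.07, 8.39, 7.70 and 7.60. In HET1 embryos it ranged from 5.61 to 7.67 (median 6.28) in mating 1 and from 9.59 to 10.74 (median 10.06) in mating 2. The 2 HET1 litters did not overlap, and mating 2 of HET1 lay above every WT embryo. Here and for the members below, the share of all genes whose litters did not overlap was not counted. In the model given below, 27% of all genes passed between the HET1 matings and 8.62% between those of the Dppa2/4+/- males.

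In the crosses with Dppa2/4+/- males the order of the matings was the other way round. Obox5 stood at 9.78, 8.15, 9.99 and 8.81 log2 RPM in the 4 HET2 embryos and at 8.96, 8.80 and 8.09 in the 3 HOM embryos of mating 1. The single HET2 embryo of mating 2 stood at 6.10, and the 7 HOM embryos of mating 2 ranged from 5.45 to 7.33 (median 6.77). All 7 embryos of mating 1 were therefore above all 8 of mating 2, whichever genotype they had.

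Obox1 followed the same litters at a lower level. It ranged from 1.86 to 4.21 log2 RPM (median 3.58) in mating 1 of HET1 and from 4.55 to 7.35 (median 6.56) in mating 2, without overlap. In mating 1 of the Dppa2/4+/- males the HET2 embryos stood at 4.79, 3.44, 6.38 and 5.95 and the HOM embryos at 4.84, 5.93 and 5.32. In mating 2 the HET2 embryo was at the floor with 3 reads, and the HOM embryos ranged from 1.86 to 4.02 (median 2.61). WT embryos ranged from 1.86 to 3.94 over both matings.

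Obox2 ranged from 1.86 to 4.55 log2 RPM (median 3.67) in mating 1 of HET1 and from 4.25 to 6.35 (median 5.62) in mating 2. It stood at 4.03, 4.49, 4.77 and 4.77 in HET2 and at 4.84, 4.87 and 5.35 in HOM embryos of mating 1, against 3.21 in the HET2 embryo and 1.86 to 3.61 (median 1.98) in HOM embryos of mating 2. The matings of the Dppa2/4+/- males did not overlap, whereas those of HET1 did. WT embryos ranged from 1.87 to 4.53 in mating 1 and stood at 1.86, 4.78, 3.04 and 4.82 in mating 2.

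Obox3, the member switched on in the embryo, varied less between the HET1 litters. It ranged from 3.88 to 5.80 log2 RPM (median 4.32) in mating 1 and from 3.01 to 5.92 (median 5.39) in mating 2. HET2 embryos of mating 1 stood at 5.84, 6.14, 5.61 and 5.88 and HOM embryos at 5.91, 5.81 and 5.09, against 3.30 in the HET2 embryo of mating 2 and 1.86 to 5.78 (median 4.19) in the HOM embryos. WT embryos ranged from 3.80 to 5.43 in mating 1 and stood at 6.25, 6.14, 5.69 and 5.14 in mating 2. The litters overlapped in all 3 crosses.

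Obox6 ran opposite to Obox5. In HET1 it ranged from 8.52 to 9.09 log2 RPM (median 8.88) in mating 1 and from 5.59 to 8.07 (median 7.20) in mating 2, without overlap. It stood at 7.46, 7.31, 6.75 and 7.61 in HET2 and at 7.74, 8.04 and 7.92 in HOM embryos of mating 1, against 8.35 and a range of 8.30 to 9.56 (median 8.84) in mating 2. WT embryos ranged from 8.001 to 9.45 (median 9.03) in mating 1 and stood at 8.42, 8.34, 7.76 and 8.98 in mating 2. The litters with high Obox5 were the litters with low Obox6.

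The differences between matings were tested in 1 model of all 44 embryos with a term for each litter (limma, Benjamini-Hochberg adjustment over 11148 genes, threshold 0.05). In HET1, 4 of the 5 members passed the threshold between the matings, where 27% of all genes did (865 higher and 2142 lower, or 1412 and 1441 with each embryo re-centred on the genes expressed throughout, which moved the median of all genes from -0.27 to -0.03). Obox5 was 11.3-fold higher in mating 2 (log2 difference 3.49, SE 0.36, adjusted p = 3.08e-10). Obox1 was higher by 3.15 (SE 0.52, adjusted p = 7.93e-06) and Obox2 by 2.31 (SE 0.54, adjusted p = 0.000982). Obox6 fell by 1.80 (SE 0.26, adjusted p = 8.82e-07). Obox3 did not pass, with a difference of 0.57 and a 95% interval from -0.30 to 1.43 (adjusted p = 0.337), and of 0.92 with each embryo re-centred (SE 0.42, adjusted p = 0.1000).

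In the crosses with Dppa2/4+/- males all 5 members passed, where 8.62% of all genes did. Relative to mating 1, Obox1 in mating 2 fell by 2.70 (SE 0.59, adjusted p = 0.00252) and Obox2 fell by 2.16 (SE 0.61, adjusted p = 0.0181). Obox5 fell by 2.33 (SE 0.41, adjusted p = 0.000187), a 5.03-fold difference. Obox3 also fell, by 1.72 (SE 0.49, adjusted p = 0.0190), and Obox6 rose by 1.02 (SE 0.30, adjusted p = 0.0220). The calls on the same 4 and 5 members were made under each alternative that was run for these comparisons.

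Between the WT matings 1 of the 5 members passed, where 1.6% of all genes did. Obox5 was higher in mating 2 by 1.52 (SE 0.41, adjusted p = 0.0378), but with embryo k or l of that litter left out the adjusted p was 0.439 or 0.0902. The 95% intervals of the other members were -1.24 to 1.14 for Obox1, -1.05 to 1.40 for Obox2, -0.07 to 1.91 for Obox3 and -1.09 to 0.10 for Obox6.

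**Figure D2:**
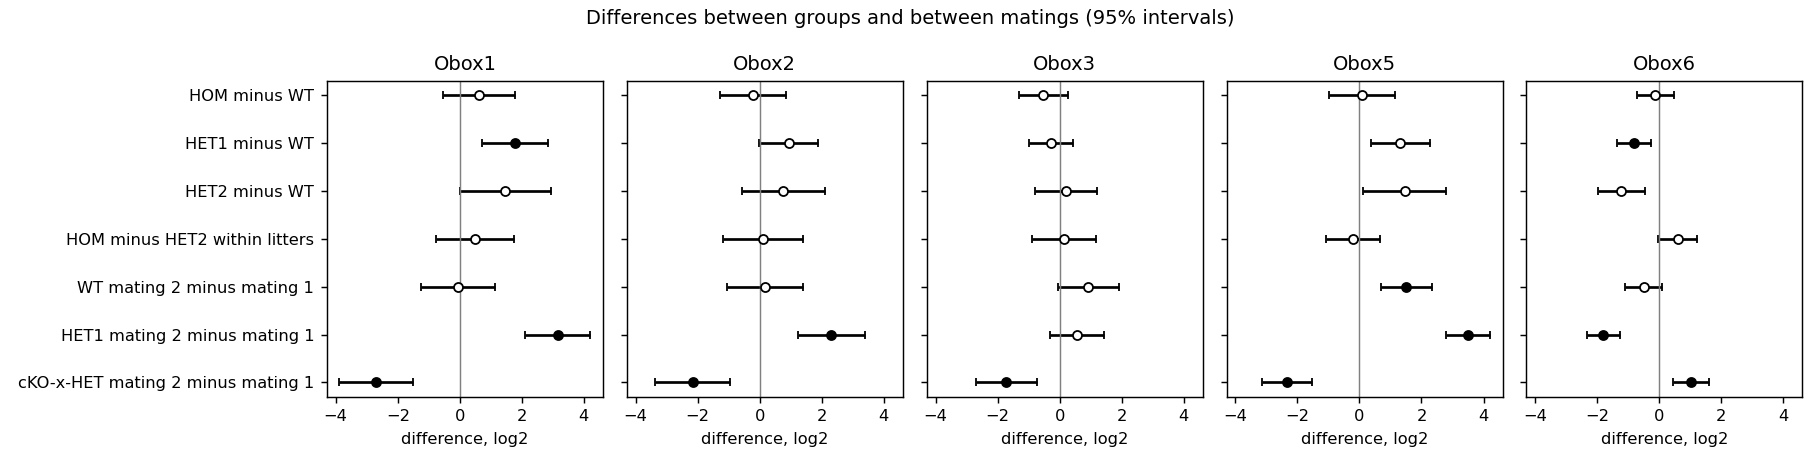
Log2 differences of the 5 genes with 95% intervals for the 4 comparisons of genotypes and the 3 of matings; filled points have an adjusted p of at most 0.05. The difference between the HET1 matings reaches 3.49 for Obox5 and -1.80 for Obox6, while HOM minus WT has no filled point.

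Whether members moved apart was tested on the difference between 2 genes in the same embryo, compared between the matings of a cross (two-sided exact permutation test over embryos, 30 comparisons, Benjamini-Hochberg adjusted). In HET1 the log2 difference of Obox5 to Obox3 was 1.99 ± 0.79 (SD, n = 7) in mating 1 and 4.92 ± 0.88 (SD, n = 8) in mating 2 (exact p = 0.000155, the smallest these embryos allow, adjusted 0.000666). Obox1 moved 2.59 more than Obox3 (exact p = 0.00155, adjusted 0.00466), and Obox2 1.74 more, which did not pass (exact p = 0.0246, adjusted 0.0557). Among the maternal members Obox5 moved 1.18 more than Obox2 (exact p = 0.00746, adjusted 0.0203), while Obox5 and Obox1 were not told apart (0.34, exact p = 0.374, adjusted 0.488). However, Obox2 was above the floor in only 4 of the 7 embryos of mating 1, which limits its shift. In the model Obox2 shifted by 2.31 with the floor, 2.59 without it and 2.91 with voom, against 3.49, 3.49 and 3.57 for Obox5. The exact test was not run without the floor. In the crosses with Dppa2/4+/- males the 3 maternal members and Obox3 were not told apart by this test, with adjusted exact p between 0.181 and 0.598.

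Obox6 separated from every other member in both crosses. In these embryos the model above had already called it opposite to Obox1, Obox2 and Obox5, and in the second cross also to Obox3. The pair differences with those members restate the calls and are no separate support. How many other gene pairs would pass was not counted. In the crosses with Dppa2/4+/- males the exact test took HET2 and HOM embryos together, whose mix differed between the matings, whereas the model above holds a HOM term. The Obox5 to Obox6 difference shifted by 5.29 between the HET1 matings and by -3.71 between those of the Dppa2/4+/- males (exact p = 0.000155, adjusted 0.000666, in both). Against Obox3, the shift was 2.37 in HET1 (exact p = 0.00140, adjusted 0.00466) and 2.95 in the opposite direction in the other cross (-2.95, exact p = 0.000155, adjusted 0.000666). Between the WT matings the Obox5 to Obox6 difference shifted by 2.01 (exact p = 0.0190, adjusted 0.0475). Per kilobase of exon, Obox5 exceeded Obox6 in 8 of 8 embryos of HET1 mating 2 and in 6 of 7 of mating 1 of the Dppa2/4+/- males, and in none of the embryos of the other 4 litters.

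**Figure D3:**
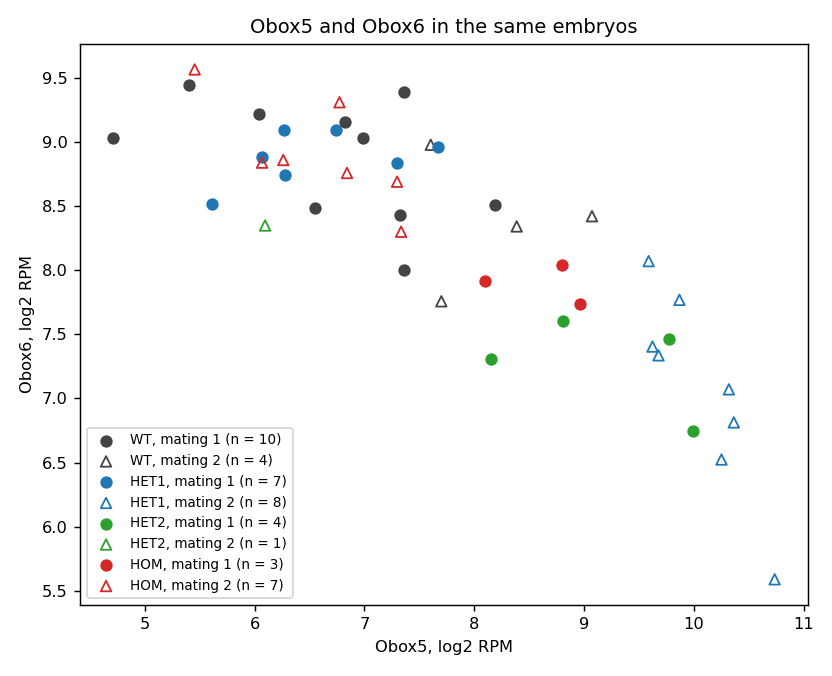
Obox6 against Obox5 (both log2 RPM) in each embryo, coloured by genotype, with mating 1 filled and mating 2 open. HET1 mating 2 and mating 1 of the Dppa2/4+/- males lie towards high Obox5 and low Obox6, overlapping each other, and over all 44 embryos Pearson's r is -0.84.

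The genotypes were compared next. Between HOM and WT embryos, which ask what the loss of maternal and embryonic Dppa2/4 does, 0 of the 5 members passed (limma), where 0.0538% of all genes did. None of the 5 had an unadjusted p under 0.05, and limma voom on the reads also called 0. The largest difference was 0.61 in Obox1 (SE 0.59, 95% interval -0.56 to 1.79, adjusted p = 0.589). Obox5 differed by 0.08 (interval -0.98 to 1.14) and Obox6 by -0.13 (interval -0.73 to 0.48). The HOM litters were opposed: without mating 2 the differences were 2.35 in Obox1, 1.52 in Obox2, 0.46 in Obox3, 1.51 in Obox5 and -0.83 in Obox6, and without mating 1 they were -0.13, -0.96, -0.95, -0.53 and 0.17, with 0 members called either way (limma, 1 at an unadjusted p under 0.05 in each). Obox3 stood at 4.62 ± 1.21 (SD, n = 10) in HOM and at 5.15 ± 0.66 (SD, n = 14) in WT embryos, a difference of -0.53 (SE 0.40, adjusted p = 0.479).

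Between HET2 and WT embryos 0 of 5 members passed, where 0.00897% of all genes did. At an unadjusted p under 0.05 there were 2, Obox5 (1.46, SE 0.67, adjusted p = 0.459, limma) and Obox6 (-1.23, SE 0.38, adjusted p = 0.275, limma), and limma voom called 0. Of the 5 HET2 embryos 4 came from mating 1. Without that litter the differences rested on 1 embryo and were -1.01 for Obox5 and -0.38 for Obox6.

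HOM and HET2 embryos shared their litters and were compared within them. Within litters 0 of 5 members passed (limma), where 0.0179% of all genes did, 0 had an unadjusted p under 0.05, and limma voom called 0. The differences were 0.50 in Obox1 (95% interval -0.75 to 1.74), 0.11 in Obox2 (-1.18 to 1.39), 0.13 in Obox3 (-0.91 to 1.17) and -0.21 in Obox5 (-1.07 to 0.65). Obox6 differed by 0.60 (-0.03 to 1.22, adjusted p = 0.885), where the median of all genes was 0.24, and by 0.31 (SE 0.33) with each embryo re-centred. Within mating 1 its 3 HOM values lay above its 4 HET2 values, whereas in mating 2 the HET2 embryo (8.35) lay within the range of the 7 HOM embryos (8.30 to 9.56).

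Between HET1 and WT embryos 2 of 5 members passed, where 8.92% of all genes did. Obox1 was higher by 1.78 (SE 0.53, adjusted p = 0.0232) and Obox6 fell by 0.81 (SE 0.27, adjusted p = 0.0455). Obox5 differed by 1.32 (SE 0.47, adjusted p = 0.0683), Obox2 by 0.93 (adjusted p = 0.212) and Obox3 by -0.28 (adjusted p = 0.676). Without mating 2 of HET1 the differences were 0.10 for Obox1 and 0.15 for Obox6, with 0 of 5 members called. With litter as a random effect the adjusted p were 0.547 for Obox1 and 0.694 for Obox6.

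Correlations over the 44 embryos describe the same grouping; they share libraries and depth and carry no test. Obox1, Obox2 and Obox5 were positively correlated, with a Pearson r of 0.76 between Obox1 and Obox2, 0.80 between Obox1 and Obox5 and 0.71 between Obox2 and Obox5. The annotated Obox1 gene overlaps Obox2, and both share sequence. The part of this in the r of Obox1 with Obox2 was not tested. Obox6 had an r of -0.84 with Obox5, -0.75 with Obox1 and -0.65 with Obox2. Obox3 had an r of 0.53 with Obox5, 0.35 with Obox1, 0.31 with Obox2 and -0.38 with Obox6. As deviations from litter means the r were smaller, 0.44 for Obox3 with Obox5, 0.43 for Obox1 with Obox2 and -0.41 for Obox5 with Obox6. The others of this grouping were 0.35 for Obox1 with Obox5, 0.23 for Obox2 with Obox5, -0.18 for Obox1 with Obox6 and -0.14 for Obox2 with Obox6. The other r of Obox3 were 0.17 with Obox1, -0.02 with Obox2 and -0.14 with Obox6. With the log10 of total reads r lay between -0.31 (Obox1) and 0.18 (Obox3).

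**Figure D4:**
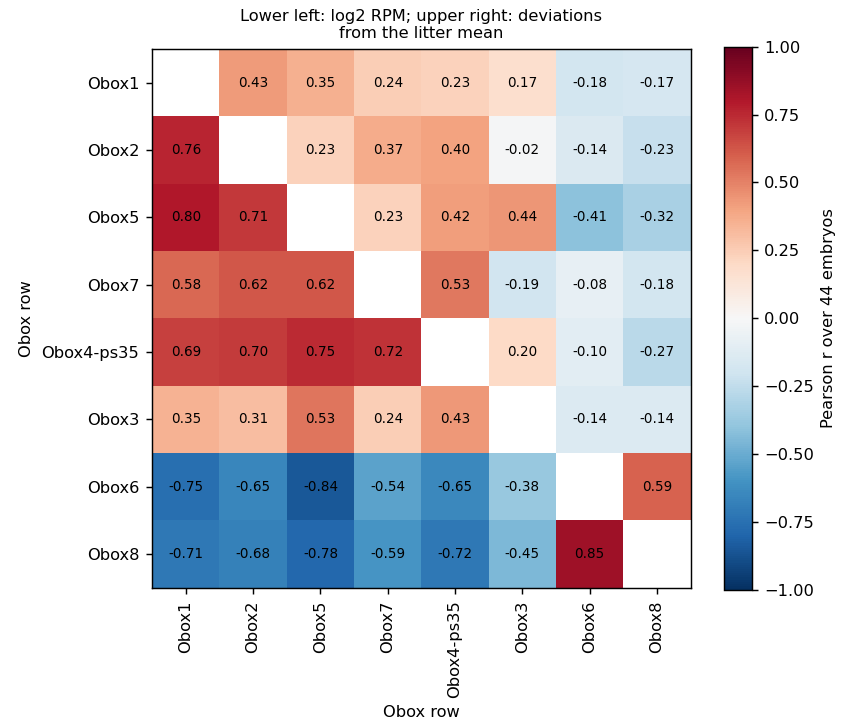
Pearson's r between the 8 Obox rows over 44 embryos, from log2 RPM (lower left) and from deviations from the litter mean (upper right). Obox1, Obox2, Obox5, Obox7 and Obox4-ps35 form a block of positive values, Obox6 and Obox8 share an r of 0.85, and the values shrink once litter means are removed.

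The other Obox rows fell on either side. Obox8 changed with Obox6: it fell by 2.63 between the HET1 matings (SE 0.41, adjusted p = 3.88e-06, limma) and rose by 2.69 between those of the Dppa2/4+/- males (SE 0.47, adjusted p = 0.000187, limma). Obox7, a maternal member, fell by 2.37 in the second comparison (adjusted p = 0.00442, limma) and differed by 1.07 in the first (adjusted p = 0.0940, limma). Obox4-ps35 was higher by 1.73 in HET1 mating 2 (adjusted p = 0.00523, limma) and fell by 2.16 in the other cross (adjusted p = 0.00813, limma).

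The genes whose deviations from litter means were most like each member over the 44 embryos included Kctd3 and Nsd1 for Obox1 (r 0.69 each), and were Spag16, AW554918 and S100pbp for Obox2 (0.60 to 0.66). They were Hnrnpa3, Clvs2 and Gm16973 for Obox3 (0.58 to 0.64), and Dennd6a, Arhgap20os and Khdc1b for Obox5 (0.76 to 0.81). For Obox6 they were Rpl31, Znhit3 and Cd63 (0.72 each). None of the genes named here is an Obox gene.

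Part of the genes that mark progress through this stage also differed between the matings of HET1 and of the Dppa2/4+/- males. Of 29 tested maternal transcripts, 14 were higher and 1 lower in HET1 mating 2, with a median difference of 1.04 against -0.27 over all genes, of which 7.76% were higher and 19.2% lower. In mating 2 of the Dppa2/4+/- males 0 were higher and 11 lower (median -1.02 against -0.01 over all genes, of which 4.08% were higher and 4.54% lower). Omt2b, an oocyte transcript, was higher by 1.64 in the first (adjusted p = 2.10e-05, limma) and fell by 1.74 in the second (adjusted p = 0.000456, limma). Omt2a changed by 1.19 and -1.38 (adjusted p = 0.000951 and 0.00343, limma), and Oog3 by 1.47 and -0.86, of which the second did not pass (adjusted p = 5.92e-05 and 0.0690, limma). The mean level of the maternal transcripts per embryo ranged from 6.43 to 7.63 log2 RPM in HET1 mating 2 and from 5.65 to 6.62 in mating 1. Of the 29, limma called 0 between the WT matings and limma voom 5. Their median difference there was 0.46 against -0.07 over all genes, of which 0.996% were higher and 0.601% lower.

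Of 27 tested genes that are activated at the 2-cell stage, 16 were higher and 0 lower in HET1 mating 2 (median 2.00 against -0.27 over all genes, 7.76% of them higher and 19.2% lower). In mating 2 of the Dppa2/4+/- males 0 were higher and 13 lower (median -1.41 against -0.01, with 4.08% and 4.54%). B020004J07Rik differed by 0.53, which did not pass, and by -2.31, which did (adjusted p = 0.371 and 0.00177, limma). Sp110 changed by 0.07 and -0.24, neither of which passed (adjusted p = 0.874 and 0.682, limma). Of the 27, limma called 0 between the WT matings and limma voom 1, although Obox5 passed there. Their median difference was -0.12 against -0.07 over all genes, of which 0.996% were higher and 0.601% lower. The mean of the 2-cell genes per embryo had an r of 0.88 with Obox1, 0.76 with Obox2, 0.86 with Obox5, 0.44 with Obox3 and -0.73 with Obox6. As deviations from litter means these were 0.60, 0.40, 0.59, 0.24 and -0.15. Dppa2 and Dppa4 were lower in HET1 mating 2 by 1.56 and 1.79 (-1.56 and -1.79, adjusted p = 0.000969 and 0.000263, limma), and differed by 0.79 and 0.21 between the matings of the Dppa2/4+/- males (adjusted p = 0.216 and 0.783, limma). The mitochondrial share of reads had medians of 7.37% in HET1 mating 2 and 6.86% in mating 1 of the Dppa2/4+/- males, and of 9.26% to 12.2% in the other 4 litters. The part of these values in the Obox differences was not tested.

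Of 18 tested homeobox genes of oocyte and embryo, 1 was higher and 4 lower in HET1 mating 2, near the shares of all genes (7.76% higher and 19.2% lower). In mating 2 of the Dppa2/4+/- males 1 was higher and 1 lower, where 4.08% and 4.54% of all genes were. Adnp fell by 1.33 in the first (adjusted p = 0.00361, limma) and rose by 1.33 in the second (adjusted p = 0.0255, limma). Crxos, a homeobox gene of egg and embryo, fell by 1.57 in the first (adjusted p = 0.000895, limma) and differed by 0.89 in the second (adjusted p = 0.151, limma). Meis2 differed by 0.53 and -0.72 (adjusted p = 0.277 and 0.252, limma). The median difference of the list was 0.30 and -0.38 in these comparisons, against -0.27 and -0.01 over all genes.

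Of 27 tested genome activation factors, 5 were higher and 6 lower in HET1 mating 2, where 7.76% and 19.2% of all genes were, and the lower ones included Dppa2 and Dppa4 themselves. In mating 2 of the Dppa2/4+/- males 0 were higher and 2 lower, where 4.08% and 4.54% of all genes were. Dppa3, a maternal factor that protects methylation marks, differed by 0.47 and -0.01 (adjusted p = 0.194 and 0.983, limma). The chromatin remodeller Smarca5 differed by -0.32 and 0.22 (adjusted p = 0.379 and 0.672, limma), and Yap1, the Hippo pathway coactivator, by 0.59 and -0.65, of which the first passed (adjusted p = 0.0424 and 0.0956, limma). Zfp352, Zscan4c, Zscan4d and Zscan4f stand in this list and in the list of 2-cell genes, and make up 4 of the 5 that were higher.

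The 4 lists were also counted between genotypes. Between HOM and WT embryos the tests called 0 genes of the maternal, 2-cell and homeobox lists (limma; 8, 2 and 4 at an unadjusted p under 0.05; limma voom 0), and 2 of the genome activation factors, Dppa2 and Dppa4 themselves, were lower. Of all 11148 genes 0.0359% were called higher and 0.0179% lower, and 2037 had an unadjusted p under 0.05. Within litters, HOM against HET2, the same counts held, with 0, 2 and 0 at an unadjusted p under 0.05, as had 474 of all genes, of which 0% were called higher and 0.0179% lower. For HET2 against WT limma called 0 genes of each list, where 0% of all genes were called higher and 0.00897% lower. At an unadjusted p under 0.05 there were 7 maternal, 6 2-cell and 3 homeobox genes and 8 factors, and 1098 of all genes. The medians were 0.75 (maternal), 0.73 (2-cell), 0.16 (homeobox) and -0.06 (factors), against -0.01 over all genes. Limma voom called 1 factor and 0 in the other lists. Between HET1 and WT embryos 10 maternal transcripts and 6 of the 2-cell genes were higher and 0 lower, 3 homeobox genes were higher and 1 lower, and 2 genome activation factors were higher and 4 lower, where 5.11% of all genes were higher and 3.8% lower. Limma voom called 5 maternal transcripts, 2 of the 2-cell genes, 3 homeobox genes and 6 factors. With litter as a random effect limma called 0 of all 11148 genes between HET1 and WT (801 at an unadjusted p under 0.05), and without HET1 mating 2 it called 5.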

How the data were processed

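Single 2-cell embryos were sequenced by the authors from oligo-dT primed cDNA. Per the submitters' notes and the paper's methods, reads were trimmed (Trim Galore 0.6.5, cutadapt 2.3), mapped to GRCm38 with HISAT2 2.1.0, kept at a mapping quality of at least 20 and quantified over mRNA in SeqMonk without strand. The authors deposited log2 RPM values for 35269 genes in 44 embryos, in which a gene without reads stands at 0.9 read. Whole reads were recovered from these steps (99.9997% of values within 0.05 read), and total reads ranged from 247667 to 3163026, which limits precision for counting error only.

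Values were raised to a common floor of 1.86. Genes above it in at least 11 embryos (11148) were tested with limma 3.58.1 (lmFit, eBayes with trend; R 4.3.3), with 4 groups in 1 model, or 1 term per litter and a HOM term. Differences between 2 genes were compared by exact permutation. Scripts were tested on simulated data. Transcripts came from GENCODE vM21 and promoters from RefSeq.

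The members and lists were chosen with earlier results of these data known. Genes named are the members, the other Obox rows, the 3 genes most like each member, the 3 genes of highest mean level in each list (maternal, 2-cell, homeobox, genome activation), and Dppa2 and Dppa4. Some genes that this rule takes are not reported here. Alternatives covered floor, pseudocount, filter, scaling, weights, voom, litter and left-out embryos; the depth limit and the left-out WT embryos were added after seeing the data. No 2 columns were identical.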

Additional observations from a re-analysis of the deposited data

Results flagged for a closer look

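Obox3 in HET2 embryo e stood at 3.30 log2 RPM (17 reads), apart from the other 4 HET2 embryos at 5.61 to 6.14. This embryo is the single HET2 embryo of mating 2.

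Obox3 in HOM embryo h stood at the floor of 1.86 (1 read), apart from the other 9 HOM embryos at 3.95 to 5.91. The same embryo had the highest Obox6 (9.56) and the lowest Obox5 (5.45) of the HOM group. Chance alone sets apart about 1 in 20 groups by this measure, and 2 groups were examined for each of 5 genes.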

How the results depend on the processing

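The calls between the HET1 matings and between those of the Dppa2/4+/- males kept their members under each alternative run. Of 5 members, 2 were called between HET1 and WT. This was 1 with embryos of at least 500000 reads, with the floor 1 log2 unit higher, with log2(RPM + 1), with only the 2 groups compared and with the mating number as a replicate block. With array weights it stayed 2, but Obox6 was lost (adjusted p = 0.0667, limma) and Obox5 gained (adjusted p = 0.0497, limma). It was 0 with a filter on the mean, no filter, limma voom, a random effect of litter and litter means as the replicates, and 0 to 4 with 1 litter left out (4 without HET1 mating 1, 0 without HET1 mating 2 or WT mating 1). Between HET2 and WT 0 became 1 with array weights and 0 to 1 with 1 litter left out (1 without HET1 mating 2). Between the WT matings 1 became 0 with array weights, the depth limit, the filter on the mean and no filter, and 0 to 1 with 1 WT embryo of mating 2 left out (0 without k or l).

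Some differences reversed, and the cause was not tested. Between HOM and HET2 without a litter term the differences were -0.85 (Obox1), -0.97 (Obox2) and -0.73 (Obox3). For Obox2 the same comparison gave -0.040 without the floor, -0.15 re-centred and -0.11 with log2(RPM + 1), and for Obox3 -0.13 re-centred and -0.039 with voom. Between the WT matings Obox1 gave 0.091 with array weights, and Obox2 gave -0.35 without the floor, -0.48 with voom, -0.38 with log2(RPM + 1) and -0.037 with log2(RPM + 5). Between HOM and WT, Obox2 gave 0.14 with the depth limit, 0.0070 in the random-effect fit and 0.24 over litter means, and Obox5 gave -0.18 re-centred. Between HET2 and WT, Obox3 gave -0.20 in the random-effect fit and -0.76 over litter means.

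With 1 litter left out, HOM minus WT ranged from -0.13 to 2.35 (Obox1), -0.96 to 1.52 (Obox2), -1.18 to 0.46 (Obox3), -1.002 to 1.51 (Obox5) and -0.83 to 0.23 (Obox6). With 1 litter or 1 HET2 embryo left out, HET2 minus WT ranged from -1.15 to 2.12 (Obox1), -0.29 to 1.02 (Obox2), -1.85 to 0.72 (Obox3) and -1.01 to 2.08 (Obox5). With 1 litter left out, HET1 minus WT ranged from -0.30 to 2.01 (Obox2), -0.55 to 2.95 (Obox5) and -1.66 to 0.15 (Obox6). With 1 HET2 embryo left out, HOM minus HET2 ranged from -0.031 to 0.51 (Obox2) and -0.26 to 0.22 (Obox3), and with 1 WT embryo of mating 2 left out the WT matings ranged from -0.37 to 0.32 (Obox1) and -0.22 to 0.77 (Obox2).

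The labels name no day or batch that a mating number shares across crosses, so the numbers were not taken to pair litters. Over 11148 genes the mating differences correlated at 0.41 (WT with HET1), -0.40 (WT with the Dppa2/4+/- males) and -0.73 (HET1 with the latter). With the replicate block Obox5 gave -0.38 and Obox6 0.10 between HOM and WT, and 814 genes instead of 994 were called between HET1 and WT and 18 instead of 6 between HOM and WT. Over the alternatives the number of all genes called ranged from 2 to 163 (HOM and WT, 6 as reported), 0 to 2634 (HET1 and WT, 994), 0 to 113 (HET2 and WT, 1), 2 to 5 (HOM and HET2, 2), 9 to 612 (WT matings, 178), 1444 to 3259 (HET1 matings, 3007) and 619 to 2134 (matings of the Dppa2/4+/- males, 961). The low read numbers of Obox1 and Obox2 limit their values near the floor.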
